A study of Mus musculus with 12 samples.

Results

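Erythroid and heme synthesis genes were followed in the spleens of wild type (WT) and ficolin knockout (KO) mice, naive or challenged with lipopolysaccharide (LPS). The set held 35 listed genes of red cell precursors and of heme production, and a gene was taken where a row of the array table carried its symbol alone, with the brightest row used where there were several. Of the 35, 33 were measured among 22180 genes in all. Alas2, the erythroid enzyme that starts heme synthesis, shares its row with a neighbouring symbol and was not used, and Ahsp, the chaperone of alpha globin, was not analysed here. The other 33 all had a mean above the lowest array median of 4.17.

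The 12 arrays came from 12 female C57BL/6 mice aged 10 weeks, 3 in each of 4 groups. Naive WT and naive ficolin KO mice were left untreated. The LPS groups, WT and ficolin KO, were given 10 mg/kg LPS into the peritoneum, and their spleens were taken 6 h later. Ficolin KO mice lack both ficolin-A (Fcna) and ficolin-B (Fcnb) in every tissue, and the controls for LPS received no injection. Fcna read 7.92 to 9.38 in WT and 3.98 to 4.85 in KO mice, and Fcnb read 3.18 to 3.69 in all of them, below the array medians, so that it gives no check of the genotype. Genes that mark spleen lymphocytes, stroma and macrophages averaged 7.88 to 8.83 across the arrays, and B cell markers fell after LPS from 10.05 to 10.26 in naive mice to 8.34 to 8.49.

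The adult mouse spleen, unlike the human spleen, keeps making red cells in its red pulp, and it increases that output under stress. Precursors turn on a program led by the transcription factors Gata1, Klf1 and Tal1, divide a few times, fill with hemoglobin, build the spectrin membrane skeleton and finally expel the nucleus. Heme is made partly in mitochondria and partly in the cytosol, from glycine and succinyl-CoA, by a chain that ends when ferrochelatase (Fech) inserts iron into protoporphyrin. The same organ also removes old red cells, through red pulp macrophages that recover the iron.

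Regulatory sequence is shown for the 6 genes whose level moved relative to the rest of the set after LPS in both genotypes, as described further on. Each run is the 250 bases before the RefSeq transcription start (GRCm38.p6), read on the strand of the gene. Capitals mark matches, on either strand, to the core site of GATA factors (AGATAA with A or G as its last base, and the same site starting with T, written TGATAA) and to CCNCNCCC, the core of the CACCC-type sites that Klf1 and other Krüppel-like and Sp factors bind. The 3 genes that moved up were Rhag (chr17:40810899-40811148, plus strand), Gfi1b (chr2:28621983-28622232, minus strand) and Sptb (chr12:76710548-76710797, minus strand).
Rhag: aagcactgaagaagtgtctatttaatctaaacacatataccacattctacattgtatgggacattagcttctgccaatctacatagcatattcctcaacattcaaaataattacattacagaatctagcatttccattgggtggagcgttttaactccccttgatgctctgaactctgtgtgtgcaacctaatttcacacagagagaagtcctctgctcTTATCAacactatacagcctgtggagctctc
Gfi1b: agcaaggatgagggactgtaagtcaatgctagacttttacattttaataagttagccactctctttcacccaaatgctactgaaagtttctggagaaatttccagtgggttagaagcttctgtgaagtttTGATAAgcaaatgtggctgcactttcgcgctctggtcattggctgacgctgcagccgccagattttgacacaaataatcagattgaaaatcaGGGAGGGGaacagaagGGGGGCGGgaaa
Sptb: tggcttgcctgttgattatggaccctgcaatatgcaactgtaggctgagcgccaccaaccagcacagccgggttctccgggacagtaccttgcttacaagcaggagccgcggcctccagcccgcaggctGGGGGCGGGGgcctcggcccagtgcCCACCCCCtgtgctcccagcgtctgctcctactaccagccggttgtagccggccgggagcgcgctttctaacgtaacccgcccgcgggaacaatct
The 3 that moved down were Aqp1 (chr6:55336049-55336298, plus strand), Slc25a38 (chr9:120110132-120110381, plus strand) and Ppox (chr1:171281187-171281436, minus strand).
Aqp1: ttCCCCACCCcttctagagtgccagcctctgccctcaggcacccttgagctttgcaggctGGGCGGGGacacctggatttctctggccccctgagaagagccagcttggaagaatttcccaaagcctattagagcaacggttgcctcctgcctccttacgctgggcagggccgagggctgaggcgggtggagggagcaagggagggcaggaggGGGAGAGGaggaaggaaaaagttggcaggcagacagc
Slc25a38: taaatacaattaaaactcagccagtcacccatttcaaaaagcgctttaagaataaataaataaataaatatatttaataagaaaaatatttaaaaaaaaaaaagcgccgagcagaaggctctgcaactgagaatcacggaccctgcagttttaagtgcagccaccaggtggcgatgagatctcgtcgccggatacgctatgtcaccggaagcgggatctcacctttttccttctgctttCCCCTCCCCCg
Ppox: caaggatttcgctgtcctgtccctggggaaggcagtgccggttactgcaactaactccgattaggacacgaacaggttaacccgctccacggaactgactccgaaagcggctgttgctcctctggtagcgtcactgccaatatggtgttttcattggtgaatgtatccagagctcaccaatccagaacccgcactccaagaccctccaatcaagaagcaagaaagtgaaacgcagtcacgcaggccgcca
The Rhag window held 1 GATA match, written in reverse as TTATCA from 31 bases before the start, and no CCNCNCCC match. Gfi1b held 1 GATA match and 2 CCNCNCCC matches, Sptb held 3 CCNCNCCC matches, Aqp1 held 3 and Slc25a38 held 2 that overlap each other. No letters of either motif were in the Ppox window. Windows were given for 25 of the 33 genes, 30 windows in all. A GATA match lay in 16 of the 30 (53.3%), against 26.5% of all 32851 windows, and CCNCNCCC lay in 16 (53.3%), against 45.9%. These shares describe letters and were not tested.

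All genes of the set but Nfe2 averaged above the median gene, some of them only just. Array values of the 33 genes ran from 3.96 to 10.79 on the log2 scale, on which the median gene averaged 4.61. The mitochondrial iron carrier Slc25a37 (mitoferrin) averaged 9.92, carbonic anhydrase Car2 averaged 9.84, the chloride and bicarbonate exchanger Slc4a1 (band 3) averaged 9.48, and Fech and carbonic anhydrase Car1 averaged 9.44. Values of different genes come from different probes, so these levels are not set against each other. The dimmest were Nfe2, a bZIP transcription factor, at 4.54 and Trim58, a ubiquitin ligase, at 4.77. Of the globins, 6 rows could be used and they hold embryonic and theta genes. Hba-x, Hbb-y, Hbb-bh1 and Hbb-bh2 averaged 2.73 to 3.35 in every group, below the lowest array median, and Hbq1a and Hbq1b averaged 3.97 to 5.27. Rows of the adult alpha and beta globins carry several symbols and were not used.

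The main feature of the set was how much it varied between mice of the same group. The pooled standard deviation within groups had a median of 0.63 over the 33 genes, against 0.17 over all genes. It was above the 95th percentile of all genes (0.33) for 32 of the 33, and above the 99th for 24. The exception was Slc25a38, the mitochondrial glycine carrier, with 0.29, at percentile 91.3. Rhag, the Rh-associated glycoprotein that carries ammonia across the red cell membrane, varied most, with 1.12. Among the 11306 genes at least as bright as the dimmest of the set, the 95th percentile was 0.34 and the same number, 32, lay above it. In bulk tissue, fewer cells of a type and less RNA per cell cannot be told apart.

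**Figure D1:**
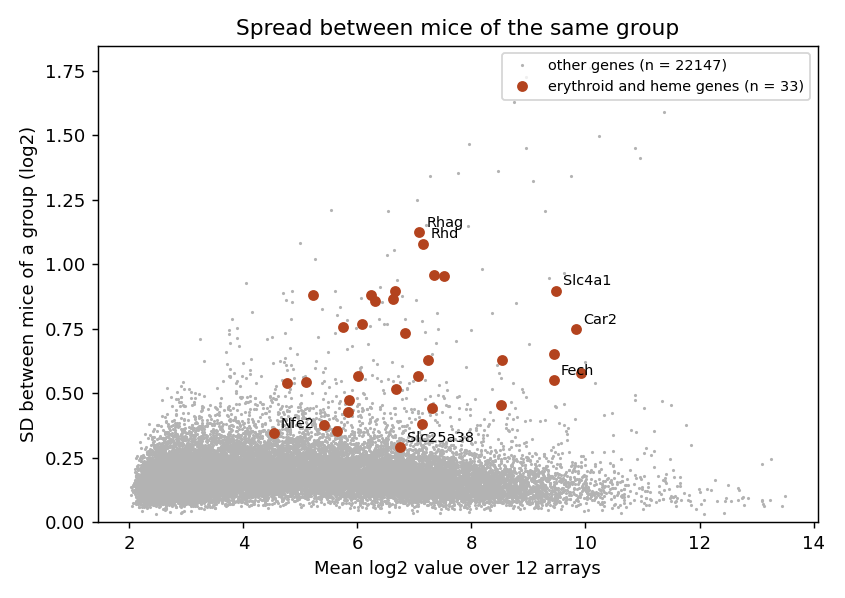
Pooled standard deviation between mice of a group (vertical axis, log2) against the mean log2 value over 12 arrays (horizontal axis), 1 point per gene. The 33 erythroid and heme genes (filled) run from 0.29 for Slc25a38 to 1.12 for Rhag, and the median of all genes is 0.17.

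The genes moved together from mouse to mouse. Naive WT mouse 1 was the highest of its group for all 33 genes, and naive WT mouse 3 the lowest for 30. Naive KO mouse 1 was the lowest of its group for all 33, and naive KO mouse 3 the highest for 30. Among LPS challenged mice, WT mouse 1 was the lowest for 31 genes and WT mouse 3 the highest for 26, while KO mouse 3 was the highest for all 33 and KO mouse 2 the lowest for 31. The mean of the 33 genes on each array is called the member mean below. It was 7.74, 6.71 and 6.23 in naive WT mice, 6.18, 6.87 and 7.32 in naive KO mice, 6.85, 7.44 and 7.65 in WT mice after LPS, and 6.71, 6.14 and 7.53 in KO mice after LPS. Group means were 6.89 ± 0.78, 6.79 ± 0.57, 7.32 ± 0.41 and 6.79 ± 0.70 (SD, n = 3), so that all 4 groups overlapped.

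**Figure D2:**
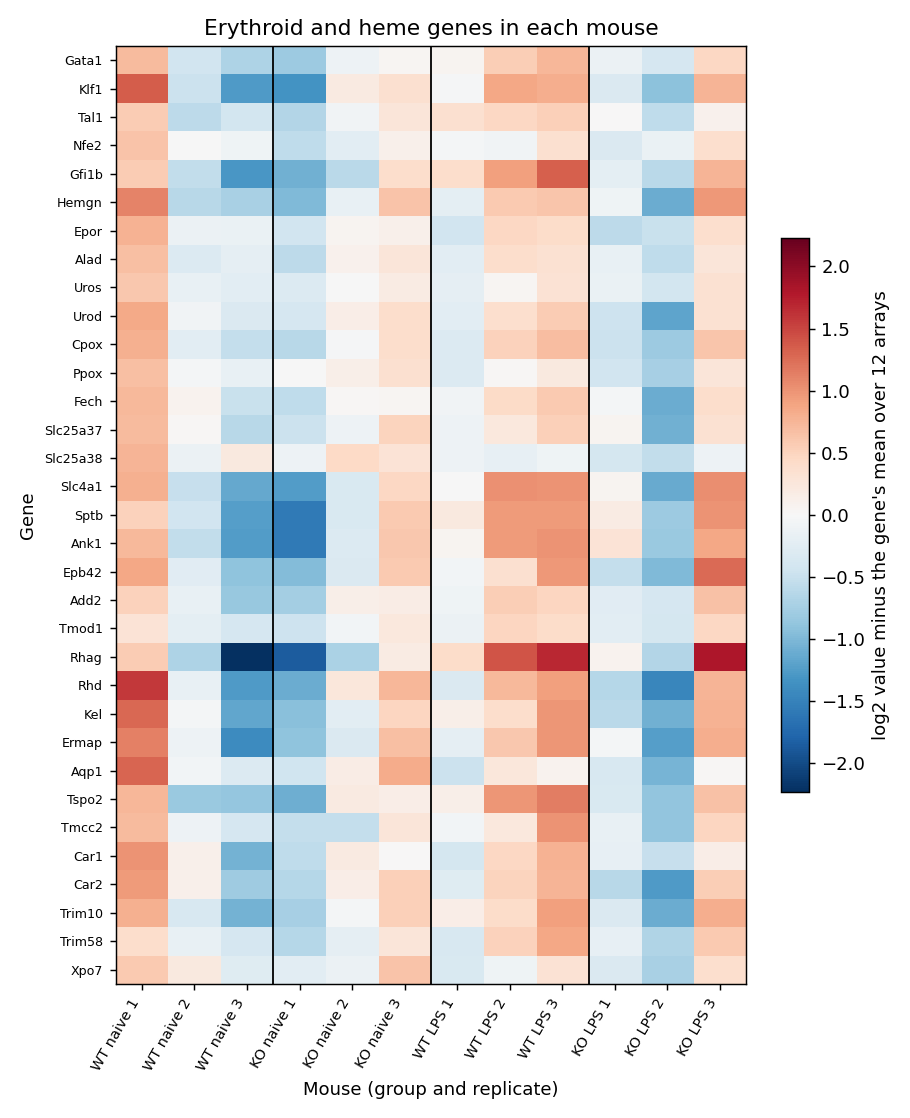
Log2 value of each of the 33 genes (rows) on each of the 12 arrays (columns), minus that gene's mean over all arrays, in red where higher and blue where lower. Columns change colour nearly as a whole: naive WT mouse 1 and KO mouse 3 after LPS are red for nearly every gene, and naive KO mouse 1 and KO mouse 2 after LPS are blue.

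Among transcription factors, Klf1, which switches on adult globin and membrane genes, read 8.70, 6.87 and 6.08 in naive WT mice, 6.01, 7.55 and 7.71 in naive KO mice, 7.32, 8.22 and 8.16 in WT mice after LPS and 7.02, 6.43 and 8.11 in KO mice after LPS. Gata1, the factor red cell precursors cannot do without, read 7.39, 6.25 and 5.99, then 5.87, 6.57 and 6.73, then 6.74, 7.24 and 7.42, then 6.55, 6.31 and 7.15 in the same order. In naive WT mice alone Klf1 thus spanned 2.62 log2 units and Gata1 1.40, and no pair of groups was separated for either gene. Epor, the erythropoietin receptor, read 6.64, 5.73 and 5.71 in naive WT, 5.43, 5.93 and 5.98 in naive KO, 5.44, 6.32 and 6.27 in WT after LPS and 5.28, 5.36 and 6.24 in KO after LPS. Fech read 10.17, 9.53 and 8.95, then 8.88, 9.47 and 9.49, then 9.37, 9.88 and 10.03, then 9.40, 8.33 and 9.83. Naive WT mouse 1 had the highest value of its group for both genes, and no pair of groups was separated for either.

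The first comparison asked what LPS did to these genes in WT mice, with a call for a fold-change over 2 and an adjusted p under 0.05 (limma, Benjamini-Hochberg over 22180 genes). Rhag and Gfi1b rose, 2 of the 33 genes, and none fell. Over all genes 4.05% were called higher and 4.95% lower, so the count was near the background. The median log2 difference of the set was 0.38, with 26 positive and 7 negative, against 0.01 over all genes. Of the 33 genes, 4 had an unadjusted p under 0.05, against 38.4% of all genes.

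Rhag read 7.64, 6.40 and 4.85 in naive WT mice and 7.49, 8.49 and 8.77 after LPS, and in KO mice 5.23, 6.38 and 7.26 before and 7.16, 6.42 and 8.89 after. Naive and challenged mice overlapped in both genotypes, through naive WT mouse 1 and the lower KO mice. The fold-change was 3.87 in WT mice (log2 1.95, SE 0.68, adjusted p = 0.0424) and 2.30 in KO mice (log2 1.20, SE 0.68, adjusted p = 0.235). Gfi1b, a zinc finger repressor that red cell and platelet precursors need, read 7.39, 6.28 and 5.53 in naive WT mice and 7.22, 7.75 and 8.17 after LPS, and in KO mice 5.75, 6.22 and 7.22 before and 6.62, 6.23 and 7.58 after. Here too naive WT mouse 1 reached into the range of the challenged mice. The fold-change was 2.49 in WT mice (log2 1.31, SE 0.45, adjusted p = 0.039) and 1.33 in KO mice (log2 0.41, SE 0.45, adjusted p = 0.581). The methods' t-test called neither gene in WT mice (adjusted p = 0.235 for Rhag and 0.237 for Gfi1b).

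The membrane skeleton and its anchors held the next 3 genes by the mean difference of both genotypes, Sptb, Ank1 and Slc4a1, and none was called. Sptb, the erythroid beta spectrin, read 6.82, 5.88 and 5.07 in naive WT, 6.52, 7.25 and 7.26 in WT after LPS, 4.72, 5.96 and 6.89 in naive KO and 6.49, 5.49 and 7.30 in KO after LPS. Ank1, the ankyrin that ties spectrin to band 3, read 7.38, 6.11 and 5.42, then 6.72, 7.61 and 7.66, then 5.09, 6.36 and 7.26, then 6.96, 5.83 and 7.52 in that order. Slc4a1 read 10.28, 8.97 and 8.34, then 9.48, 10.51 and 10.48, then 8.24, 9.15 and 9.94, then 9.55, 8.36 and 10.52. In each of these genes naive and challenged mice overlapped in both genotypes, with log2 differences in WT mice of 1.09 for Sptb (adjusted p = 0.144), 1.03 for Ank1 (adjusted p = 0.187) and 0.96 for Slc4a1 (adjusted p = 0.221). A second, dim probe set of Ank1 gave 0.35 in WT and 0.01 in KO mice. Epb42, the band 4.2 protein that links band 3 to ankyrin, read 7.10, 5.98 and 5.34 in naive WT, 6.17, 6.59 and 7.21 in WT after LPS, 5.28, 5.92 and 6.83 in naive KO and 5.70, 5.25 and 7.50 in KO after LPS. Add2, the beta subunit of adducin, which caps the ends of the skeleton's actin, read 5.61, 4.93 and 4.25, then 4.99, 5.64 and 5.57, then 4.33, 5.22 and 5.25, then 4.83, 4.72 and 5.75. For both genes naive and challenged mice overlapped in each genotype.

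Other membrane proteins went in either direction. Tspo2, an erythroid relative of the mitochondrial translocator protein, read 6.49, 4.91 and 4.88 in naive WT, 5.87, 6.73 and 6.89 in WT after LPS, 4.65, 5.94 and 5.90 in naive KO and 5.40, 4.86 and 6.40 in KO after LPS. Its log2 difference was 1.07 in WT (adjusted p = 0.103) and 0.06 in KO mice. Ermap, an immunoglobulin superfamily protein that carries the Scianna blood group in humans, read 8.65, 7.40 and 6.12, then 7.32, 8.13 and 8.51, then 6.62, 7.19 and 8.19, then 7.48, 6.30 and 8.34 in that order. The water channel Aqp1 had negative differences in both genotypes. It read 8.53, 7.17 and 6.93 in naive WT, 6.75, 7.49 and 7.30 in WT after LPS, 6.79, 7.40 and 8.06 in naive KO and 6.88, 6.20 and 7.26 in KO after LPS, a difference of -0.36 in WT and -0.64 in KO mice, neither called.

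In ficolin KO mice none of the 33 genes was called after LPS, where 4.22% of all genes were called higher and 4.43% lower, and 1 had an unadjusted p under 0.05. The methods' t-test, run on the same arrays, also called none. Of the set, 16 genes had a positive difference and 17 a negative one, with a median of 0.00 (-0.003). The gene with the low p was Slc25a38, which read 6.63, 7.19 and 7.05 in naive KO and 6.35, 6.19 and 6.63 after LPS, and 7.50, 6.61 and 6.96 in naive WT and 6.63, 6.56 and 6.65 after LPS. The challenged mice lay at or below the lowest naive mouse in KO mice, with a log2 difference of -0.57 (SE 0.20, adjusted p = 0.0459) that is smaller than the 2-fold asked for. In WT mice the difference was -0.41 (adjusted p = 0.145).

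Heme synthesis enzymes gave differences smaller than the 2-fold asked for. In WT mice the log2 differences after LPS were 0.11 for Alad, which forms the first pyrrole, -0.01 for Uros and 0.08 for Urod, later cytosolic steps, 0.28 for Cpox and -0.17 for Ppox, the mitochondrial oxidation steps, and 0.21 for Fech. In KO mice they were -0.08 for Alad, -0.03 for Uros, -0.49 for Urod, -0.14 for Cpox, -0.46 for Ppox and -0.09 for Fech. None of the 6 was called in either genotype. The other genes of the set, among them Kel and Rhd of the blood group proteins, Tmod1, Tmcc2, Hemgn, Nfe2, Car1, Car2, Trim10, Trim58 and the nuclear exporter Xpo7, had differences between -0.46 and 0.70, and none was called.

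These numbers depended on single mice. Without naive WT mouse 1, 7 genes were called higher in WT mice after LPS (Gata1, Klf1, Gfi1b, Sptb, Ank1, Rhag and Tspo2) and the median rose to 0.75. The 4.05% above belongs to the fit with all arrays. The share of all genes called without this mouse is not given, so the 7 have no background. Without naive WT mouse 3 the median was 0.01 and none was called. None was called either without naive WT mouse 2, WT mouse 2 after LPS or WT mouse 3 after LPS, and 1 was called without naive KO mouse 2 or KO mouse 1 after LPS, which enter only through the shared spread. In KO mice the median ran from -0.37 without KO mouse 3 after LPS to 0.32 without KO mouse 2 after LPS, with no gene called in any of these fits.

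The next comparisons asked whether the ficolin genotype changed these genes, with a call for a fold-change over 1.5 and an unadjusted p under 0.05. Naive ficolin KO and WT mice gave no called gene of 33, against 0.185% of all genes (0.0947% higher and 0.0902% lower), and none had a p under 0.05 in limma or was called by the methods' t-test. The median difference, KO minus WT, was -0.09, with 29 genes negative and 4 positive. The intervals were wide: Rhag differed by -0.01 with a 95% interval from -1.47 to 1.45, and Slc25a38 by -0.07 with an interval from -0.49 to 0.36. The sign of the median rested on single mice, being 0.35 without naive WT mouse 1 and 0.18 without naive KO mouse 1.

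After LPS all 33 genes were lower on average in ficolin KO than in WT mice, and 1 of them, Tal1, was called. Over all genes 0.311% were called lower and 0.149% higher. The median difference was -0.52 and the range ran from -0.94 for Tspo2 to -0.12 for Nfe2. Tal1, a helix-loop-helix partner of Gata1 that starts blood formation in the embryo, read 6.20, 6.29 and 6.36 in WT and 5.85, 5.27 and 5.93 in KO mice after LPS. These groups did not overlap, as was so in the same direction for 4.94% of all genes and in the other for 5.95%. Tal1 was the sole member separated in any of the 4 pairwise comparisons. Of all genes, 19.4% were separated higher and 21.3% lower after LPS in WT mice, and 18.8% and 20.9% in KO mice. Between naive KO and WT mice the shares were 3.21% and 3.07%. The fold-change was 0.66 (log2 -0.60, SE 0.28, limma's unadjusted p = 0.046), and limma's adjusted p over all genes was 0.93. In naive mice Tal1 read 6.40, 5.25 and 5.43 in WT and 5.19, 5.76 and 6.11 in KO, a difference of -0.01. Tal1 stands in the study's own list for this comparison of the same arrays, so its call here is not independent evidence.

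Because the 33 genes move together within mice, their shared sign is that of the member mean and not of 33 separate results. The size of the difference depended on single mice. Without KO mouse 2 after LPS the median was -0.14, 30 of the 33 genes were still negative and none was called. Without KO mouse 3 after LPS the median was -0.91 and 16 were called lower. The adjusted p of these 16 ran from 0.799 to 0.83. The share of all genes called is not given for the fits without single arrays, so these counts have no background. Without WT mouse 1 after LPS 5 were called, and without WT mouse 2 or 3 after LPS none. Leaving out naive mice, which enter through the spread alone, gave 3 without WT mouse 1, 2 without WT mouse 3, KO mouse 1 or KO mouse 3, and 0 without KO mouse 2. Exocrine pancreas markers, 16 genes, moved with the same comparison, averaging 4.12 to 7.76 in KO mice after LPS and 7.70 to 10.16 in the other groups. With their mean as a covariate the median of the set was -0.43, 3 genes were positive and 1 was called, while the difference of Tal1 went from -0.60 to -0.98 and its SE from 0.28 to 0.41. The difference of the LPS responses between genotypes was called, by an adjusted p under 0.05, for none of the 33 genes and for 0.00902% of all genes. None had an unadjusted p under 0.05, and its median was -0.37.

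Since the ranges of the member mean in naive mice (6.18 to 7.74) and in challenged mice (6.14 to 7.65) nearly coincide, LPS and naive mice could also be set against each other at an equal member mean. This fit, chosen after the values were seen, added the member mean of each array as a covariate over all 22180 genes. By construction the adjusted differences of the set sum to about 0, so they say which genes moved relative to the others, not whether the set moved. The median standard error of the LPS difference in WT mice fell from 0.39 to 0.16. With an adjusted p under 0.05 and no fold limit, 4 genes were higher and 4 lower in WT mice, where 13.1% and 16.3% of all genes were, and 4 were higher and 6 lower in KO mice, where 13.1% and 15.2% were. The shares are near the background and the results concern single genes.

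**Figure D3:**
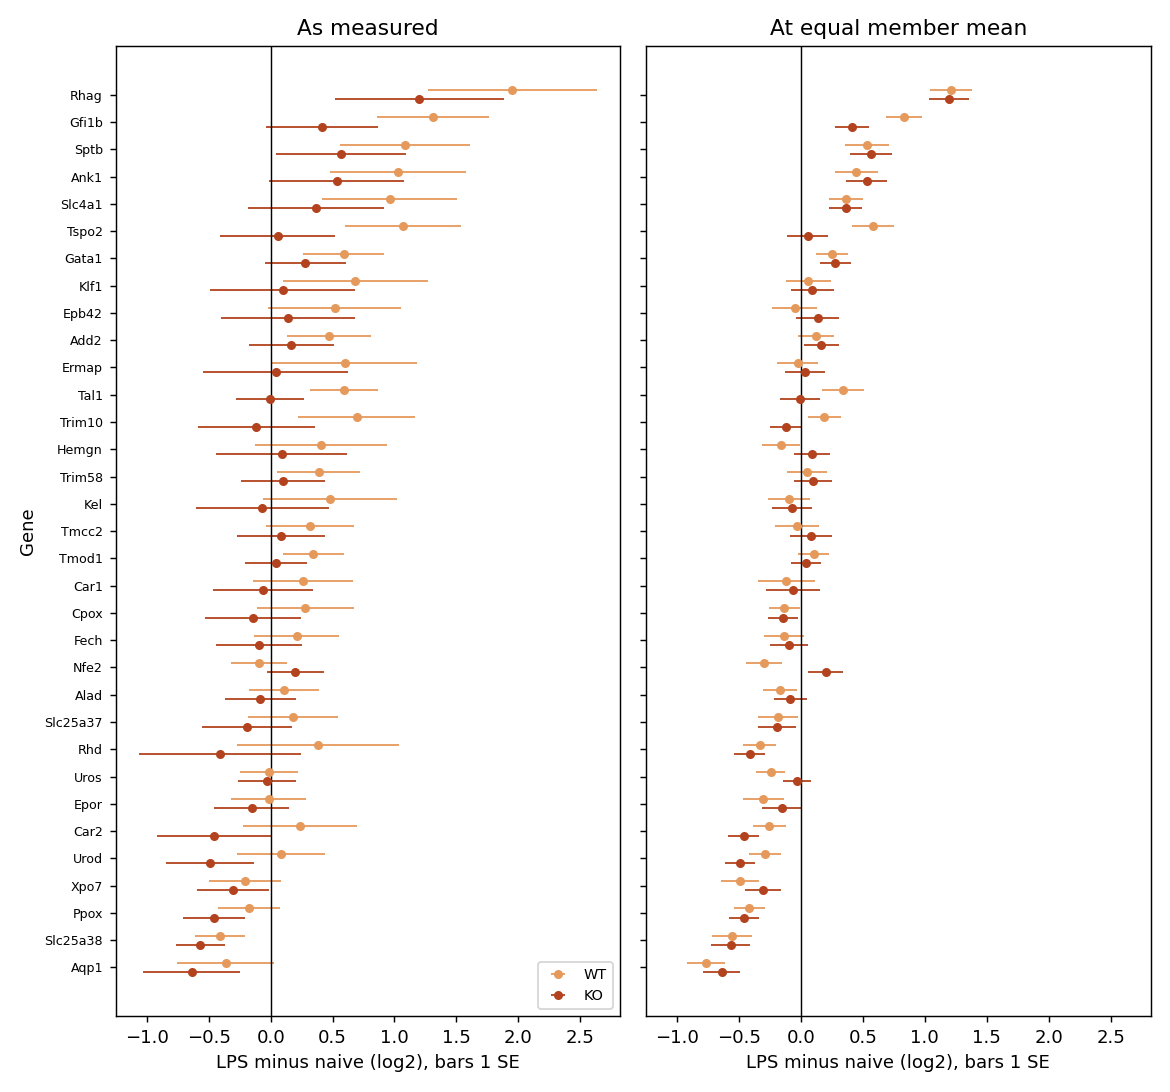
Difference of LPS minus naive mice (horizontal axis, log2) for each of the 33 genes (rows), in WT and KO mice, with bars of 1 standard error. On the left, as measured, Rhag is at 1.95 in WT and 1.20 in KO mice, and on the right, at equal member mean, at 1.21 and 1.19 with far shorter bars.

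Rhag rose relative to the rest of the set in both genotypes. At equal member mean its LPS difference was 1.21 (2.32-fold, SE 0.17, adjusted p = 4.99e-05) in WT and 1.19 (2.29-fold, SE 0.16, adjusted p = 3.84e-05) in KO mice. Gfi1b rose by 0.83 (SE 0.15, adjusted p = 0.000396) in WT and 0.41 (SE 0.14, adjusted p = 0.0391) in KO mice, and Sptb by 0.53 (adjusted p = 0.0361) and 0.57 (adjusted p = 0.0216). In the plain values, KO mouse 2 after LPS had the lowest member mean of all 12 mice. It still read 6.42 for Rhag, against 5.23 in naive KO mouse 1 and 4.85 in naive WT mouse 3. Sptb read 5.49, 4.72 and 5.07 in these mice. The readings come from the arrays of the fit and are not separate evidence. The Rhag promoter shown above holds 1 GATA match close to the start and the Sptb promoter holds none. A link of the motif to the LPS response was not tested. Ank1 rose in KO mice (0.53, adjusted p = 0.0278) and read 0.45 (adjusted p = 0.0712) in WT mice. Tspo2 rose in WT mice (0.58, adjusted p = 0.0176) and read 0.05 in KO mice, but in this fit the difference of responses was not called for any of the 33 genes (0.00902% of all genes). Nor was any called between genotypes by an adjusted p under 0.05. Over all genes 0.00902% were lower in naive KO mice, and 0.00451% were higher and 0.0135% lower in KO mice after LPS. Tal1, called above by an unadjusted p, differed here by -0.29 between KO and WT mice after LPS (SE 0.17, limma's unadjusted p = 0.112).

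Aqp1, Slc25a38 and Ppox fell relative to the set in both genotypes. At equal member mean Aqp1 fell by 0.77 (SE 0.16, adjusted p = 0.00136) in WT and 0.64 (SE 0.15, adjusted p = 0.00398) in KO mice, Slc25a38 by 0.56 (adjusted p = 0.0162) and 0.57 (adjusted p = 0.0113), and Ppox, the protoporphyrinogen oxidase, by 0.42 (adjusted p = 0.0209) and 0.46 (adjusted p = 0.00918). Ppox read 7.81, 7.10 and 6.97 in naive WT, 6.83, 7.17 and 7.36 in WT after LPS, 7.13, 7.26 and 7.50 in naive KO and 6.71, 6.39 and 7.41 in KO after LPS. Xpo7 fell in WT mice by 0.49 (adjusted p = 0.0214) and read -0.31 in KO mice. Urod, Car2 and Rhd fell in KO mice, by 0.49, 0.46 and 0.42, and read -0.29, -0.26 and -0.34 in WT mice. B cell markers fell (6 of 7 in each genotype), as did red pulp macrophage markers (7 and 8 of 11), in the same comparison, and their part in these differences was not tested.

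**Figure D4:**
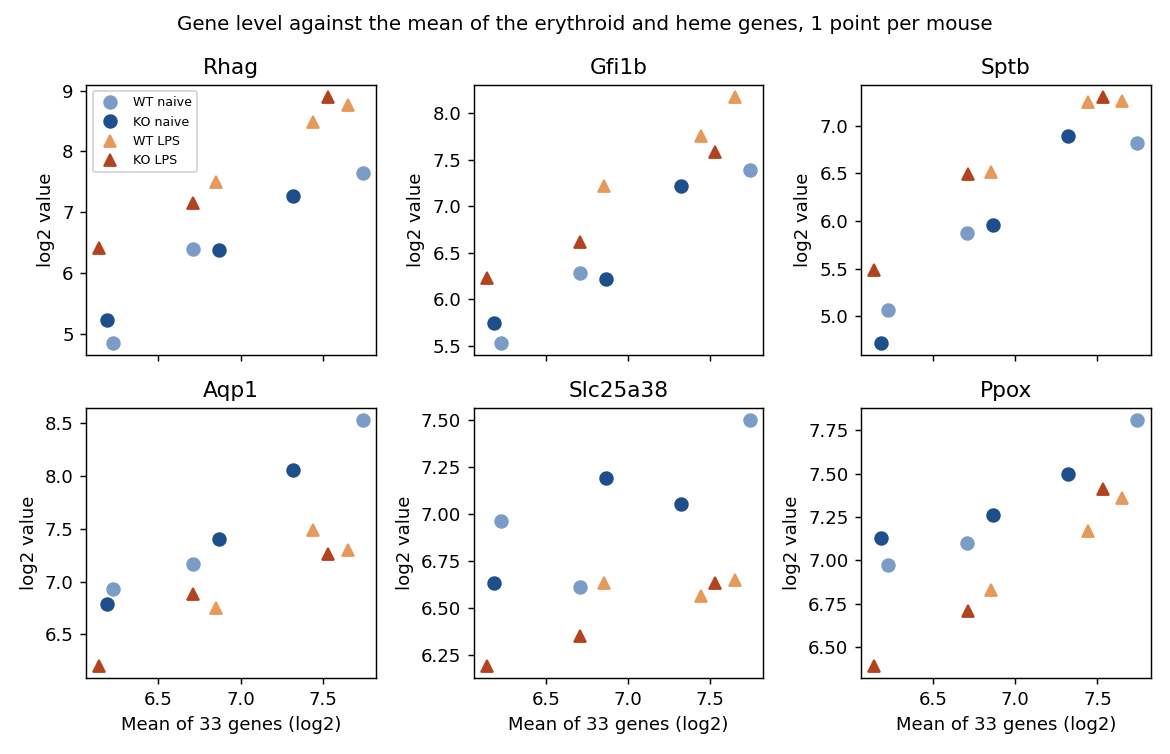
Log2 value of Rhag, Gfi1b, Sptb, Aqp1, Slc25a38 and Ppox (vertical axes) against the mean of the 33 genes (horizontal axis, log2), 1 point per mouse, circles for naive and triangles for LPS challenged mice. At like positions on the horizontal axis the triangles lie above the circles for Rhag, by about 1.2 log2 units, and below them for Aqp1.

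Rhag and Aqp1 in both genotypes, and Gfi1b in WT mice, kept their calls in all 19 other settings run, including each array left out in turn and a member mean without the gene itself. Sptb kept its call in 11 of 19 settings in WT and 14 in KO mice, and Gfi1b in KO mice in 11. Slc25a38 and Ppox each kept theirs in 16 settings in WT and 18 in KO mice. Without naive WT mouse 1 their differences in WT mice were -0.37 (adjusted p = 0.214) and -0.395 (adjusted p = 0.113). In WT mice the count of 8 went to 5 without naive WT mouse 1 or WT mouse 1 after LPS and to 3 without WT mouse 2 after LPS. In KO mice the count of 10 went to 5 without naive KO mouse 1 and to 6 without naive KO mouse 2 or KO mouse 1 after LPS.

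Genes outside the set show what else followed the member mean from mouse to mouse. For each of the other 22147 genes a slope was fitted within groups, as log2 units of the gene per 1 log2 unit of the member mean. It was positive with an adjusted p under 0.05 for 165 genes (0.745%) and negative for 3 (0.0135%), Cth, Mir30c-1 and Smim22. The member mean is itself measured on the same arrays, and 12 mice in 4 groups give few degrees of freedom. The lowest p belonged to Ctse, cathepsin E, with a slope of 1.48 (SE 0.10). Ctse read 10.44, 9.35 and 8.22 in naive WT mice, 8.24, 9.47 and 9.95 in naive KO, 9.32, 10.14 and 10.29 in WT after LPS and 8.79, 7.91 and 10.18 in KO after LPS, so that within each group its order of mice was that of the member mean. Then followed the amino acid transporter Slc43a1 (1.16), the mitochondrial transporter Abcb10 (1.01), which helps Slc25a37 to import iron, Abcg4 (1.06), Btnl10 (1.20), Tspan33 (1.19), Tspan8 (1.21), Slfn14 (1.35), Ypel4 (1.06) and Dmtn (0.97), the dematin of the membrane skeleton. These 10 kept their calls whichever array was left out.

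Listed red cell genes outside the set were among those that passed, where the background was 0.745%. Of red cell membrane and skeleton genes 6 of 21 passed, Dmtn, Xk, Mpp1, Kcnn4, Aqp9 and Stom. Of maturation and metabolism genes 6 of 23 did, among them Ypel4, the peroxiredoxin Prdx2 (0.67), the ubiquitin ligase Ube2o (0.58), which clears ribosomes and other proteins from late precursors, and Pklr, the red cell pyruvate kinase (0.75). Abcb10 and the glutaredoxin Glrx5 (0.56) passed among 12 other heme and mitochondrial iron genes, the transferrin receptors Tfrc (0.66) and Tfr2 (0.55) among 11 iron uptake genes, and Blvrb (0.58) and Abcg2 (0.63) among 9 genes of heme export and breakdown. Sox6 (0.70) and E2f2 (0.58) did so among 22 further transcription factors and cofactors, and Hbq1b (0.77) among the 6 globins. Tfr2, which binds the erythropoietin receptor, also stands in the list of erythropoietin and stem cell factor signalling, where it was the sole gene of 17 to pass.

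The cell cycle list followed too, with 9 of 21 genes. Ccna2 (0.91), Ccnb2 (0.92), Mki67 (0.87), Rrm2 (0.84), Cdk1 (0.71), Birc5 (0.67), Kif11 (0.61), Top2a (0.53) and Plk1 (0.50) passed, and all 21 slopes were above 0. Mki67, the proliferation antigen, read 8.92, 8.37 and 8.09 in naive WT, 8.16, 8.53 and 9.11 in naive KO, 8.04, 8.74 and 8.93 in WT after LPS and 8.29, 7.48 and 9.17 in KO after LPS. No cell cycle gene was called after LPS in either genotype. No marker passed among lists for B cells (7), T cells (6), red pulp macrophages (11), endothelium (10), megakaryocytes and platelets (11), early progenitors (8), mast cells with basophils and eosinophils (10) or exocrine pancreas (16). None of 10 neutrophil markers passed, but their median slope of 0.51 was the highest of the 19 lists, with every gene between 0.14 and 0.73. Neutrophil markers averaged 7.08, 6.43 and 6.12 in naive WT mice and 6.04, 6.58 and 7.34 in naive KO mice, the order of the member mean. After LPS they averaged 5.85, 6.45 and 6.26 in WT and 6.13, 6.72 and 6.29 in KO mice, where the order differed and KO mouse 2, the lowest in member mean, was the highest. Their part in the member mean was not tested.

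Without KO mouse 3 after LPS the 165 genes were 72, and the 9 cell cycle genes 5. The count was 97 without naive WT mouse 1, 104 without WT mouse 1 after LPS and 107 without KO mouse 2 after LPS, and 61 when both naive WT mouse 1 and WT mouse 3 after LPS, the arrays farthest from the median member mean, were left out.

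**Figure D5:**
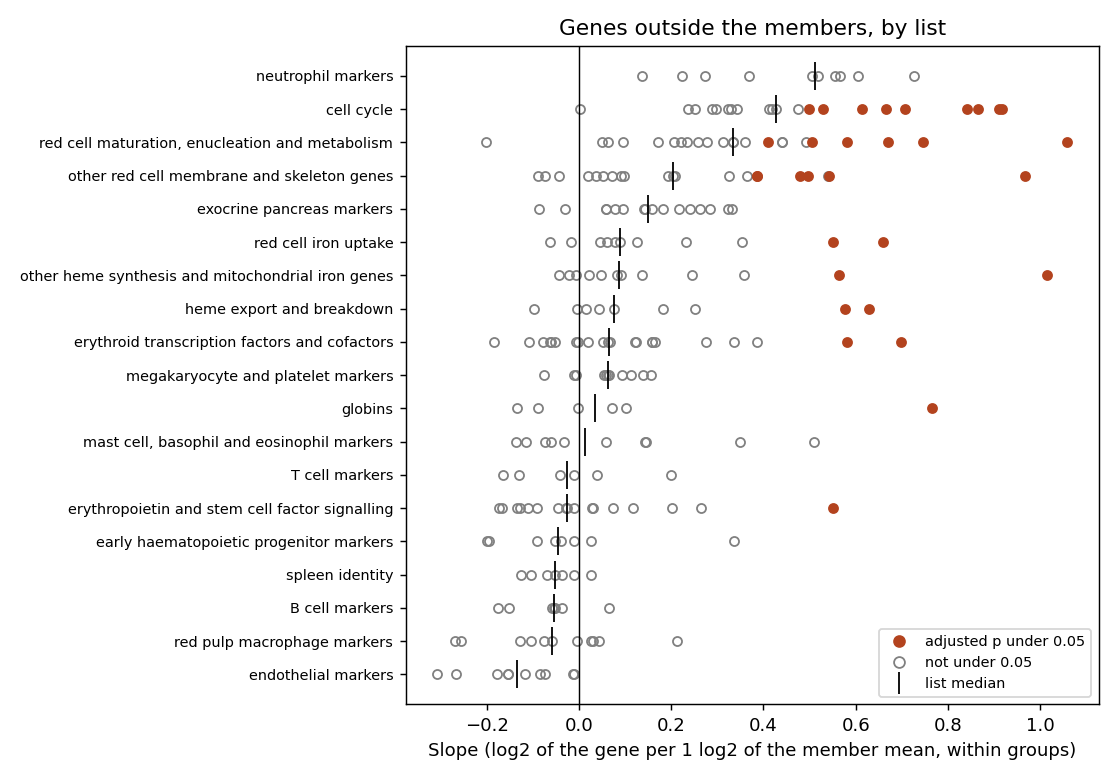
Slope of each gene of 19 lists on the member mean within groups (horizontal axis, log2 per log2), 1 point per gene, filled where the adjusted p was under 0.05, with a bar at the list median. Filled points stand in the red cell lists and the cell cycle list, the latter from 0.50 to 0.92, and neutrophil markers have the highest median, 0.51, with no filled point.

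Around the set, some other genes of the pathway were called after LPS. Among 17 genes of erythropoietin and stem cell factor signalling 6 rose in WT and 4 in KO mice and none fell. The shares over all genes, for this and the lists that follow, were 4.05% higher and 4.95% lower in WT mice and 4.22% and 4.43% in KO mice. Socs3, a feedback inhibitor of cytokine receptors that many cells share, rose by 3.59 in WT and 3.17 in KO mice (log2), the kinase Pim1 by 2.04 and 1.99, Socs2 by 1.75 and 1.53 and Stat5a, which carries the erythropoietin signal, by 1.10 and 1.05. Epor itself differed by -0.02 and -0.15. These genes act in immune cells as well, and the arrays do not separate cell types.

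Of 22 further transcription factors and cofactors 3 rose and 1 fell in WT mice, and 3 rose and 2 fell in KO mice, so that the count of lower genes was near the background. Myc rose by 2.57 and 2.63, Mafk, a small Maf partner of Nfe2, by 1.43 and 1.42, and Lyl1, a relative of Tal1, fell by 1.41 and 1.15 (SE 0.14 each). Gata2, which precedes Gata1 in progenitors, read 0.86 in WT and rose by 1.02 in KO mice. Among 21 membrane and skeleton genes 2 rose and 1 fell in WT mice, and 1 rose and 1 fell in KO mice. The counts in KO mice and of lower genes were near the background. Gypc, glycophorin C, rose by 1.62 and 1.48, and Add1, the alpha adducin, fell by 1.29 and 1.33. Piezo1, a mechanically gated channel, rose by 1.16 in WT and read 0.98 in KO mice. Of 12 other heme and mitochondrial iron genes 1 rose in WT mice, and 1 rose and 1 fell in KO mice. Hspa9, a mitochondrial chaperone needed for iron-sulfur clusters, rose by 1.51 and 1.57. Pgrmc1, a heme-binding partner of Fech, fell by 1.05 in KO mice and read -0.91 in WT mice.

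Of 9 genes of heme export and breakdown 2 fell in each genotype, and of 11 genes of iron uptake 1 did, with none higher. Slc40a1, ferroportin, the sole known exporter of iron from cells, fell by 5.31 in WT and 5.25 in KO mice (SE 0.13, adjusted p = 1.74e-12 and 2.04e-12), Hfe, a regulator of iron sensing, by 2.38 and 2.41, and Hmox1, the heme oxygenase that opens the heme ring, by 1.13 and 1.12. Slc40a1 and Hmox1 also stand among the red pulp macrophage markers, whose mean was 9.02 to 9.35 in naive and 7.57 to 7.84 in challenged mice. In the maturation list Pnp rose by 1.94 and 1.59, Isg20 by 1.45 and 1.31, and catalase (Cat) fell by 1.25 and 1.47, with 4 of 23 genes rising in WT and 2 in KO mice, and 1 falling in each, near the share of lower genes over all. No gene of these red cell and iron lists was called between genotypes.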

How the data were processed

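Total RNA of 12 mouse spleens, 1 array each, was measured on Affymetrix Mouse Gene 2.0 ST arrays. With Qlucore software the authors applied RMA and quantile normalization, and they deposited log2 values of 2 decimals per probe set. Such values are relative: a change in abundant cell types shifts others. Of 41345 probe sets, 23521 carried 1 symbol in the platform annotation, 1820 several and 16004 none, and the brightest row of each symbol gave 22180 genes. Arrays carry no depth; 3 per group limit the precision.

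Groups came from the labels. In R 4.3.3, limma 3.58.1 was fitted to all 4 groups together, with Benjamini-Hochberg adjustment over all genes, at the thresholds of the study's methods, and the steps were tested on simulated data. Labels do not say that mice were matched. The p-values of limma set each group difference against the pooled spread between mice of a group, drawn towards that of all genes. The members and lists were chosen with earlier results of these data known. Values on every array were given for the 12 genes with the largest mean LPS difference (Ermap and Add2 tied), those called between genotypes, and the factors, receptor and enzyme named above, and list examples were the largest differences. Ppox and the slope genes were chosen after their values were seen. Sequences are RefSeq (GRCm38.p6).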

Additional observations from a re-analysis of the deposited data

How the results depend on the processing

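Without the member mean as a covariate, none of the 33 genes was called in KO mice after LPS in any setting run. Nor was any called between genotypes in naive mice or for the difference of responses. The 2 genes called in WT mice after LPS became 0 with ordinary least squares (the plain t-test) or trended and robust variances. The count was also 0 with array weights, all probe sets tested, or exocrine pancreas markers as a covariate. It was 1 with the replicate number as a block, and leaving out arrays gave 0 to 7. The 1 gene between genotypes after LPS became 3 with the groups fitted in pairs, 4 with array weights, and 0 with trended and robust variances, without dim genes, with all probe sets or with array medians subtracted; leaving out arrays gave 0 to 16. The cause was not tested. At equal member mean the 8 genes of WT mice became 4 with ordinary least squares, and leaving out arrays gave 3 to 9 in WT and 5 to 10 in KO mice. The 165 genes with a positive slope became 61 without the 2 farthest arrays, and 72 to 157 with single arrays left out, and the 9 cell cycle genes 5 to 11. Numbers are shared between groups. Over all genes the correlation of deviations between same-numbered mice ran from -0.22 to 0.25 over 18 pairs, with 2 above 0.1. Both of these paired WT with KO mice after LPS, 0.156 for mouse 1 and 0.249 for mouse 3. Whether same-numbered mice were matched was not tested. The block changed no other count of calls past 1.5 times.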
